A study of Rattus norvegicus with 12 samples.

Results

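The activity comparison at 5 min set cultured hippocampal neurons harvested straight after a burst of synaptic firing against neurons kept silent. Its members were chosen by the labelled harvest time and are 4 of the 12 Illumina RatRef-12 expression arrays of the experiment: 2 Activity arrays, BiC/4AP and BiC/4AP + ActD, and 2 Block arrays, Block and Block + ActD. They formed 2 pairs, one without and one with ActD, and each of the 4 groups held 1 array, so the pair without ActD and the pair with ActD stood in for replicates of the activity contrast. The question was which transcripts differed within minutes of synaptic activity, and whether they did so while transcription was inhibited.

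All 4 samples were Sprague Dawley rat hippocampal cells taken at embryonic day 18.5, plated at high density over a glial feeder layer and used after 12 days in culture, with 3 coverslips pooled for each sample. All cultures, Block and Activity alike, first spent 3 h in a block of D-APV against NMDA receptors (50 µM), CNQX against AMPA and kainate receptors (40 µM) and TTX against voltage-gated sodium channels (100 nM). The blockers were then washed out of the Activity cultures, while Block cultures stayed in the inhibitors. Activity cultures received 50 µM BiC, the GABA-A receptor antagonist bicuculline, and 500 µM 4AP, the potassium channel blocker 4-aminopyridine. This treatment lasted 5 min and lets the network fire. Activity minus Block therefore joins removal of the blockers with addition of BiC and 4AP, which cannot be told apart here. The ActD groups carried 25 µM actinomycin D, an inhibitor of transcription, from before the stimulus, and the groups without it carried the DMSO vehicle. All arrays bore the same biological replicate number, and the sources used here do not say whether the coverslips of different groups came from separate dissections. The p-values therefore measure only the spread between these samples, which may be technical and in the activity fit includes any dependence on ActD. Because the cultures sat on glia, fewer cells of a type and less RNA per cell could not be told apart on any array.

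Neuronal firing opens NMDA receptors and voltage-gated calcium channels, and the calcium signal activates kinases that phosphorylate the transcription factors SRF and CREB. These drive the immediate early genes, whose transcripts are made within minutes, are short-lived, and encode transcription factors such as Fos and Egr1 and synaptic effectors such as Arc and Bdnf. Transcript levels can also shift without new transcription, through deadenylation, decapping and decay that are steered by microRNAs and by RNA-binding proteins.

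Total intensity of the 4 arrays ranged between 12643100 and 13824800, and each array detected 9751 to 10484 probes (detection p under 0.01). Of the 11792 probes tested, 9048 were detected on all 4 arrays and 593 on none of them. Neuron markers were measured on 9 of 10 genes, 8 of them detected on all 4 arrays, and all 6 astrocyte markers were detected on all 4. Microglia markers were also present: 7 of 10 were tested and 6 were detected on all 4 arrays. Levels are given as log2 intensity after background correction and quantile normalization, and differences as Activity minus Block on that scale, ± SE where a fit gave one.

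The activity contrast was the smallest source of variation among the 4 arrays. It held 13.4% of the sum of squares over the tested probes, against 67.5% for ActD and 19.1% for the interaction, which is how far the activity difference changed with ActD. At 30 min the stimulus held 49.6% and at 60 min 22.7%, but of smaller totals. The sum of squares per probe was 0.201 at 5 min, 0.096 at 30 min and 0.099 at 60 min. The shares therefore do not rank the size of the stimulus difference across harvests. The first principal component of the 5 min arrays held 72.3% of the variance. It placed Activity at -13.7 and Activity + ActD at 13.9, inside the Block arrays, which lay at -25.9 for Block and 25.7 for Block + ActD, so the ActD arrays lay apart from the others and the Activity arrays lay closer together than the Block arrays. The second component held 15.0% and placed Activity at 15.0 and Activity + ActD at -4.47, with Block at -10.4 and Block + ActD at -0.095. No replicate spread was available for these shares, and they are given as a description.

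**Figure D1:**
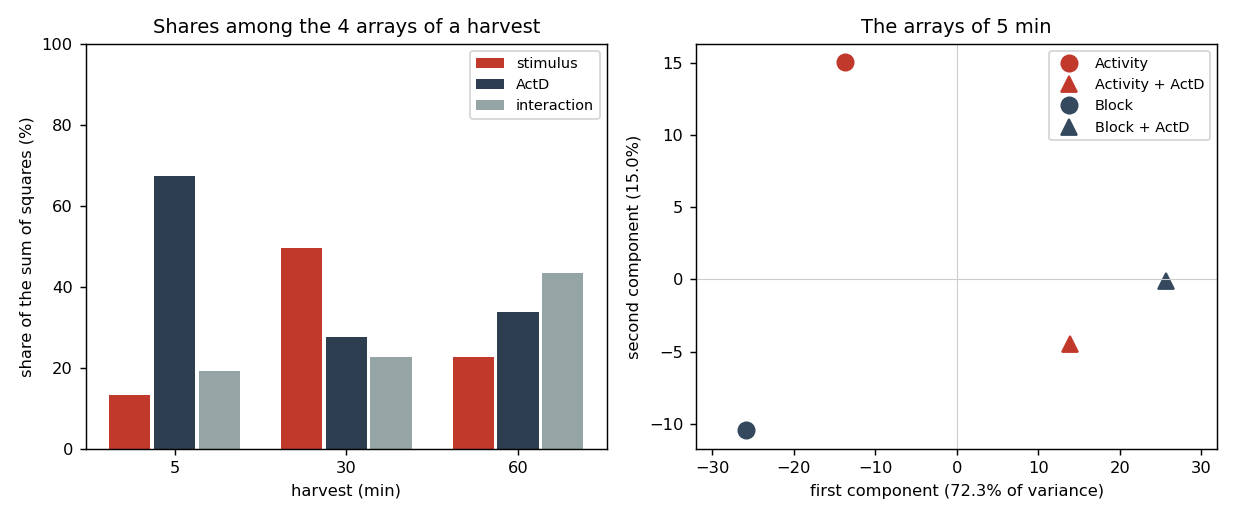
Left, share of the sum of squares over tested probes (%) held by stimulus, ActD and their interaction among the 4 arrays of each harvest (min); right, scores of the 4 arrays of 5 min on the first and second components. Stimulus held 13.4% at 5 min against 67.5% for ActD, and the first component ordered the arrays by ActD.

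Of 11792 probes, 3 passed an adjusted p of 0.05 in the limma fit over the 4 arrays (0.0254%): 1 was higher in Activity (0.00848%) and 2 were lower (0.017%). The fit left 1 residual degree of freedom, which is the change of the activity difference with ActD. Its spread came mostly from what limma shared across probes (37.1 prior degrees of freedom). That spread is a difference between treatments, not one between like samples. With 2 arrays against 2 no exact permutation test of a single gene can go below p = 0.333. At an unadjusted p under 0.05 there were 164 higher (1.39%) and 121 lower probes (1.03%).

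The probe called higher was Gdf15, a stress-induced cytokine of the TGF-beta family. Gdf15 read 12.01 in Activity and 11.88 in Activity + ActD, against 11.00 in Block and 11.60 in Block + ActD. Both Activity arrays were above both Block arrays, and the low array was Block without ActD. Gdf15 rose by 0.64 ± 0.13 (limma adjusted p = 0.0397), with a difference of 1.01 without ActD and 0.28 with it, and the deposited intensities were 4793.9 and 3971.6 in Activity and Activity + ActD against 2272.6 and 3099.2 in Block and Block + ActD. The call held in 3 of 11 other settings and its adjusted p ranged from 0.00285 to 1 over them. It was lost with the signals scaled to equal totals (0.219), with probes detected on all 4 arrays only (0.0711), with a robust variance (0.803), in either pair alone, where the spread came from the later harvests (0.723 without ActD and 1 with it), and also without a detection filter, without the ActD term and with all 12 arrays in the fit. At the later harvests Gdf15 differed by 0.11 at 30 min and 0.27 at 60 min.

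Both probes called lower carried no gene name here and are given by their identifiers. ILMN_1359709 read 11.01 and 11.04 in Activity and Activity + ActD, against 11.59 and 11.92 in Block and Block + ActD, and fell by 0.73 ± 0.12 (limma adjusted p = 0.0033). It was called in 6 of 11 other settings, with adjusted p from 0.000768 to 1, and differed by 0.31 at 30 min and -0.06 at 60 min. ILMN_1376550 was detected on both Block arrays and on none of the other 10 arrays, so it entered the test only through the group in which it was high. It read 5.18 and 5.22 in Activity and Activity + ActD, against 5.98 and 6.72 in Block and Block + ActD (limma adjusted p = 0.0397), and was at least 2.14-fold higher in Block, with the lowest detected level of each Activity array taken as the bound. That call held in 3 of 10 other settings, with adjusted p from 0.00285 to 1, and was lost without the detection filter (1).

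**Figure D2:**
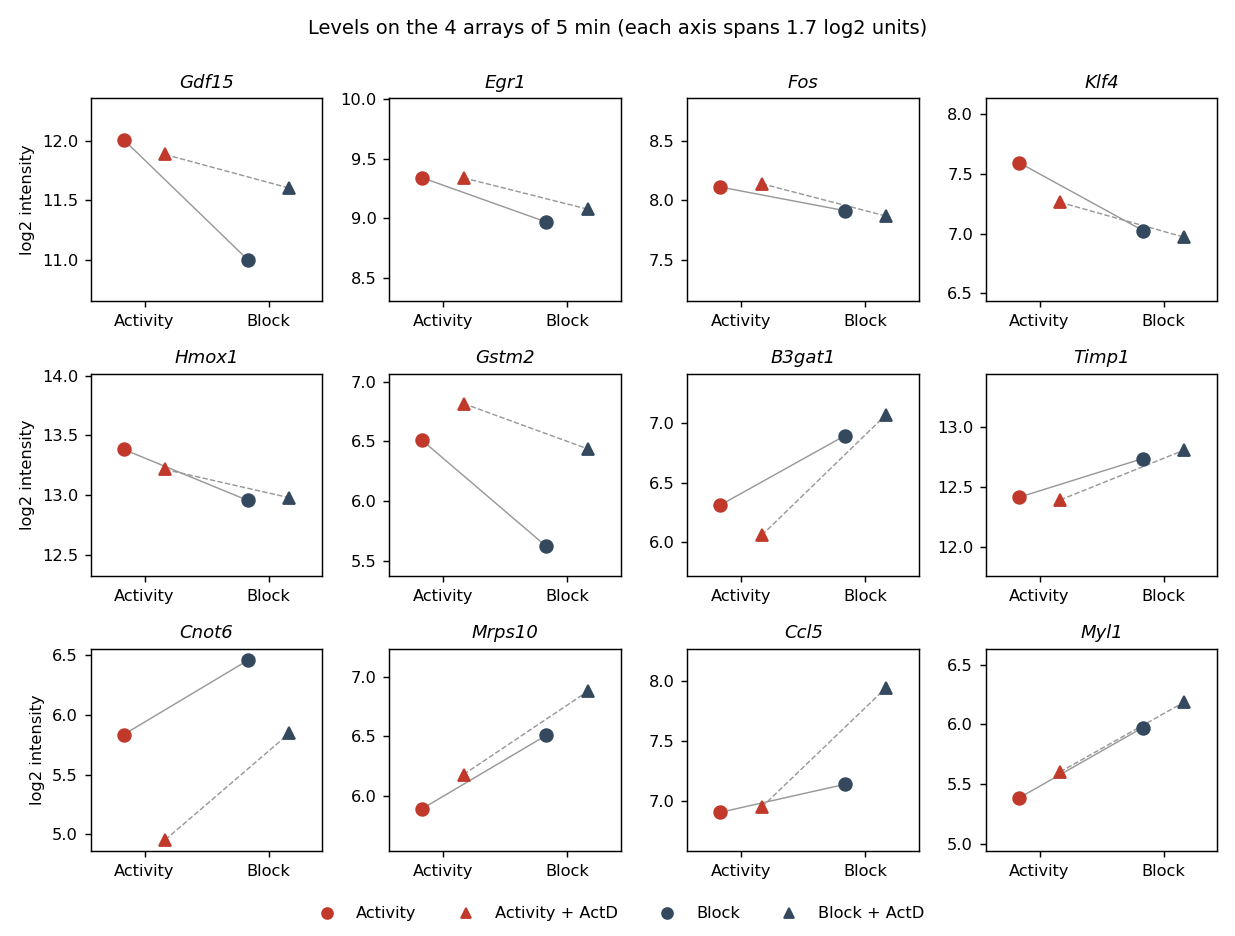
Levels (log2 intensity) of 12 genes on the 4 arrays of 5 min, Activity left and Block right of each panel, circles without and triangles with ActD, each point 1 array and each line a pair. Gdf15 lay at 12.01 and 11.88 in Activity against 11.00 and 11.60 in Block; B3gat1, Timp1, Cnot6, Mrps10, Ccl5 and Myl1 lay lower on both Activity arrays than on the Block array of their pair.

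The pairs without and with ActD mostly did not repeat each other. Of the tested probes 2329 were higher in Activity in both pairs (19.8%) and 2565 lower in both (21.8%), while 3459 were higher without and lower with ActD (29.3%) and 3439 the reverse (29.2%). Both Activity arrays lay above both Block arrays for 914 probes (7.75%) and below them for 1060 (8.99%). Past 1.5-fold, 239 probes were higher (2.03%) and 184 lower (1.56%) without ActD, and 212 higher (1.8%) and 168 lower (1.42%) with ActD. In the same direction in both pairs there were only 1 higher (0.00848%) and 8 lower probes (0.0678%), against 16 in opposite directions. Across probes, which share the same 4 arrays and their normalization, the differences of the pairs correlated at r = -0.18 and rho = -0.20. By gene, with 1 probe for each of 8169 genes, 1579 were higher in both pairs (19.3%) and 1746 lower (21.4%), and the groups did not overlap for 579 higher (7.09%) and 698 lower genes (8.54%). The counts of gene lists below are read against these shares.

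By the criterion of the study's methods, a z-fold of at least 1.4 pointing the same way in both ActD states, 30 probes were co-regulated upwards (0.299%) and 33 downwards (0.329%) of 10040. Many more, 327 probes, passed the threshold in both ActD states but in opposite directions. With the threshold lowered to 1.3 there were 42 upwards, 44 downwards and 405 in opposite directions. The study reported more transcripts in each direction than either threshold gave here, so its counts were not reproduced. Of the 30 upwards, 20 had both Activity arrays above both Block arrays, against 7.75% of all tested probes. Of the 33 downwards, 31 had both below, against 8.99%. Selection of these probes on the same 4 arrays favoured this, so it is no independent support. At 30 min 12 of the 30 lay on the same side of Block, averaged over ActD, and 14 of the 33 did. At 60 min 20 of the 30 and 20 of the 33 did.

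Immediate early genes were the first list examined. Of 75 genes 62 were on the array and 55 were tested, 50 of them detected on all 4 arrays. In both pairs 15 were higher (27.3% of those tested, against 19.3% of all genes) and 3 lower (5.45%, against 21.4%). The share higher was of like size in astrocyte (31.0%), ribosomal protein (29.3%) and oxidative phosphorylation genes (28.1%). Their shares lower in both pairs were 10.3%, 10.3% and 12.3%. Both Activity arrays lay above both Block arrays for 11 of the 55, against 7.09% of all genes, and below for 1, Spry4, an inhibitor of growth factor signalling. The median difference was 0.06, with 0.12 without and 0.06 with ActD (0.018 and 0.087 with equal totals), against a median of 0.0015 over all tested genes, and no immediate early gene passed the test.

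Egr1, a zinc-finger transcription factor of the early response, read 9.34 in both Activity and Activity + ActD, against 8.97 in Block and 9.08 in Block + ActD. The Activity arrays of Egr1 lay above both Block arrays, and the difference was 0.32 ± 0.15 (limma adjusted p = 1). Fos, the founding AP-1 subunit, read 8.11 and 8.14 in Activity and Activity + ActD, against 7.91 and 7.87 in Block and Block + ActD, a difference of 0.23 ± 0.17. For Egr1 and Fos the difference was of like size in both pairs (0.37 and 0.26 for Egr1, 0.20 and 0.27 for Fos). Klf4, a zinc-finger factor, read 7.60 and 7.26 in Activity and Activity + ActD, against 7.03 and 6.97 in Block and Block + ActD, and its difference was 0.43 ± 0.19. Errfi1, a feedback inhibitor of the EGF receptor, read 9.25 and 9.15 in Activity and Activity + ActD, against 9.02 and 8.94 in Block and Block + ActD. None of Egr1, Fos, Klf4 and Errfi1 passed the test.

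Other early genes differed mostly in the pair without ActD. Ccn2, a matricellular growth factor and target of YAP and SRF, read 11.73 in Activity and 11.04 in Activity + ActD, against 10.54 in Block and 11.03 in Block + ActD. Activity without ActD was the high array and Block without ActD the low one, with both ActD arrays between them. Atf3, a stress-induced factor of the ATF family, showed the same order: it read 8.35 and 7.92 in Activity and Activity + ActD, against 7.35 and 7.96 in Block and Block + ActD. Mafk, a small Maf protein, read 8.43 and 8.06 in Activity and Activity + ActD, against 7.59 and 8.18 in Block and Block + ActD. Zfp36, which encodes tristetraprolin and recruits deadenylases to AU-rich transcripts, read 8.15 and 7.87 in Activity and Activity + ActD, against 7.49 and 7.81 in Block and Block + ActD. The pairs differed by 1.20 and 0.01 for Ccn2, 0.99 and -0.04 for Atf3, 0.84 and -0.12 for Mafk and 0.66 and 0.06 for Zfp36, without and with ActD. The difference between the pairs did not pass the test for any of them.

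Synaptic effectors among the early genes did not lie higher in Activity. Of 9 tested, 1 was higher in both pairs and 6 were lower without and higher with ActD, with medians of -0.12 without and 0.16 with ActD. Arc, a regulator of AMPA receptor endocytosis, read 5.89 and 6.07 in Activity and Activity + ActD, against 6.09 and 5.80 in Block and Block + ActD. Bdnf, a secreted neurotrophin, read 7.90 and 7.38 in Activity and Activity + ActD, against 8.44 and 7.09 in Block and Block + ActD, so that the high and the low array of Bdnf were both Block arrays. The orphan nuclear receptor Nr4a3 was placed likewise, at 10.43 and 10.25 in Activity and Activity + ActD, against 10.75 and 9.83 in Block and Block + ActD. Jun (0.05), Junb (0.06) and Egr2 (0.02) differed by less than their standard errors of 0.16, 0.13 and 0.15.

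Promoters of the early genes were read for motifs, since SRF binds CArG boxes and CREB binds the cyclic AMP response element TGACGTCA, and Egr1 and Zfp36 are shown because they were the early genes higher in both pairs that held a CArG box. Motifs were searched on both strands in the 250 bases before the start in RefSeq (GRCr8). The CArG box was found in 6 of 45 early gene promoters (13.3%), against 1.5% of all 33469 promoters, and in 2 of the 12 whose genes were higher in both pairs. TGACGTCA was found in 5 of 45 (11.1%), against 1.59% of all promoters, and in 0 of those 12. A match is a description of the letters in this window. Each stretch below runs 5′ to 3′ on the gene's strand from 150 bases to 1 base before the start, with CArG boxes in capitals, for Egr1 at chr18:26736928-26737077 on the plus strand and for Zfp36 at chr1:92799109-92799258 on the minus strand.
Egr1: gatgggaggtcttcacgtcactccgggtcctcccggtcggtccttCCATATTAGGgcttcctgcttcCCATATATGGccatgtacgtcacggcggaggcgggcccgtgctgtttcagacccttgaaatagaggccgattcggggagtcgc
Zfp36: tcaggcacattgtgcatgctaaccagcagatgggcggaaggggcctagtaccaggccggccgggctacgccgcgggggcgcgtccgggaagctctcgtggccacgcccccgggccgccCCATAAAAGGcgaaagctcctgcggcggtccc

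Genes of the Nrf2 antioxidant programme, in which the factor Nrf2 pairs with small Maf proteins, lay higher in Activity in more of their members than genes at large. Of 36 genes 32 were on the array and 26 were tested, of which 14 were higher in both pairs (53.8%, against 19.3% of all genes) and 2 lower (7.69%, against 21.4%). The groups did not overlap for 7 higher (26.9%, against 7.09%) and 2 lower members, Taldo1 and Gpx2. The median difference was 0.12, with 0.21 without and 0.04 with ActD (0.20 and 0.064 with equal totals), and no member passed the test.

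Hmox1, the inducible haem oxygenase, read 13.38 and 13.21 in Activity and Activity + ActD, against 12.95 and 12.98 in Block and Block + ActD. Both Activity arrays of Hmox1 were above both Block arrays, by 0.33 ± 0.10 (limma adjusted p = 1), and the gene differed by 0.06 at 30 min and -0.13 at 60 min. Gstm2, a glutathione transferase, read 6.51 and 6.82 in Activity and Activity + ActD, against 5.62 and 6.44 in Block and Block + ActD, a difference of 0.63 ± 0.21. Block without ActD was the low array of Gstm2. Txnrd1, a thioredoxin reductase, read 9.74 and 9.68 in Activity and Activity + ActD, against 9.46 and 9.51 in Block and Block + ActD. The other members whose groups did not overlap were Gsta4 (0.47 without and 0.05 with ActD), Prdx6 (0.40 and 0.04), Mt1 (0.38 and 0.04) and Gstp1 (0.22 and 0.01) on the high side, and in these 4 nearly all of the difference came from the pair without ActD.

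The core of the antioxidant response element, TGACNNNGC, was found in 6 of 21 promoters of the list (28.6%), against 10.1% of all promoters, and in 3 of the 12 whose genes were higher in both pairs. It was also found in 14 of the 45 early gene promoters (31.1%). Gstp1 and Mt1, a cytosolic glutathione transferase and a metallothionein, are shown as members of the list that lay higher on both Activity arrays and whose promoters held it, with the core in capitals, and Gstp1 also held a CArG box that is left in lower case. The stretches lie, for Gstp1 at chr1:210769706-210769855 and for Mt1 at chr19:10832976-10833125, both on the minus strand of GRCr8 and 5′ to 3′ on the gene's strand.
Gstp1: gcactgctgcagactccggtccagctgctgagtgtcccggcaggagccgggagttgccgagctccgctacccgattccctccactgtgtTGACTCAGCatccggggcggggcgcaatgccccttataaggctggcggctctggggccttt
Mt1: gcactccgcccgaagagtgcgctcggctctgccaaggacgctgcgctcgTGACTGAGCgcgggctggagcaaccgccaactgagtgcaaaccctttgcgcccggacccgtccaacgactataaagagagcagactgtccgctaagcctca

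**Figure D3:**
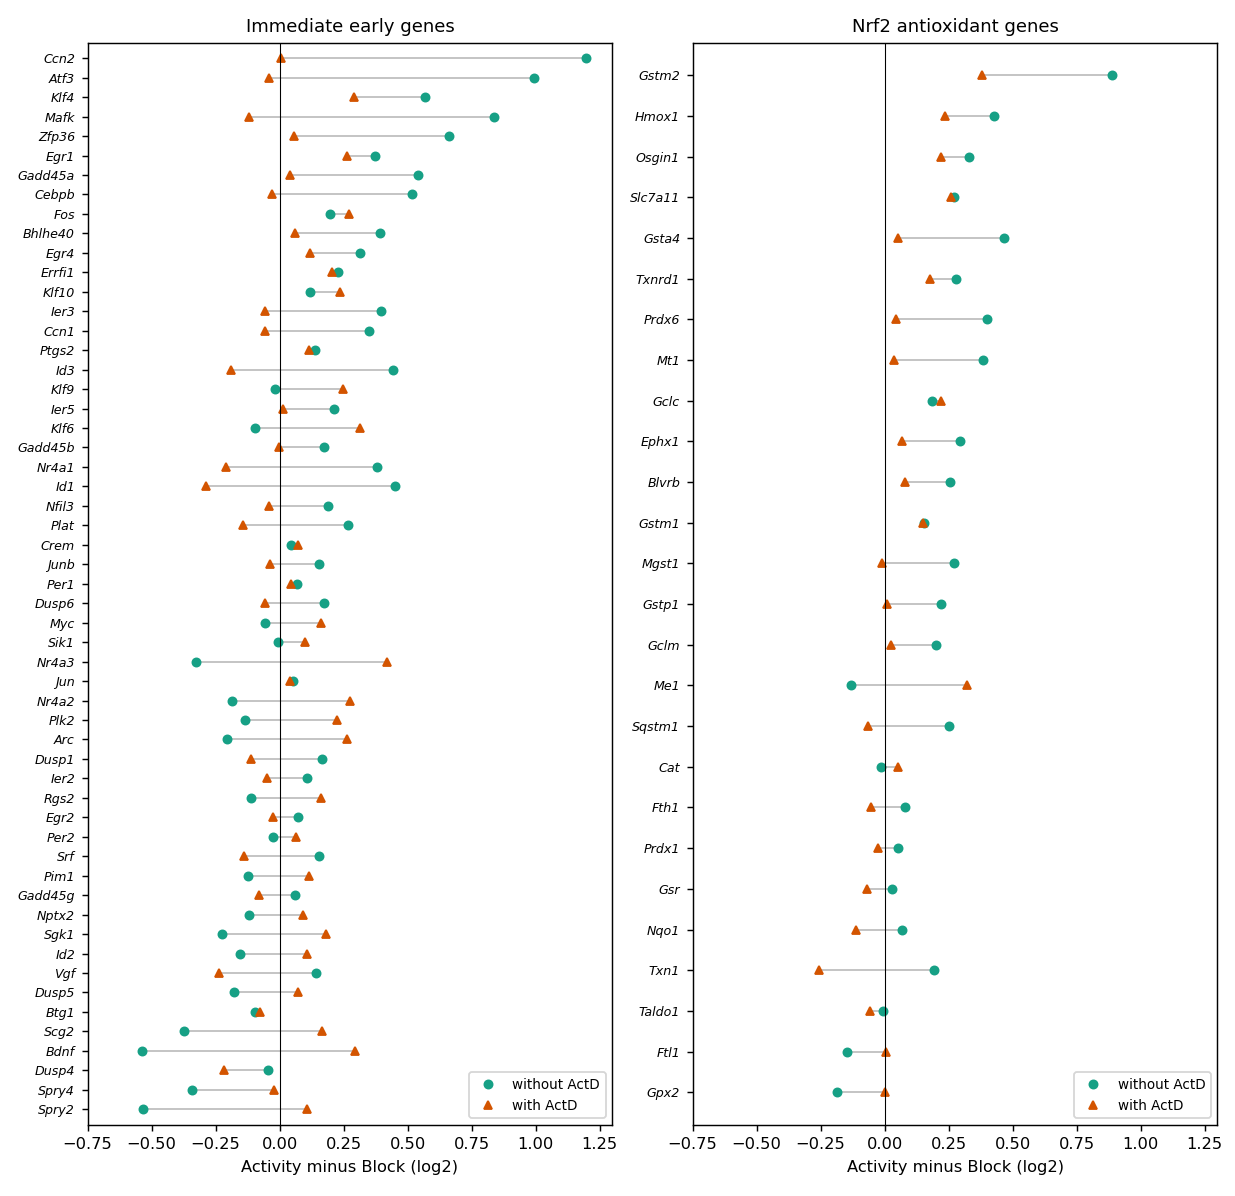
Activity minus Block (log2) of each tested immediate early gene (left, 55 genes) and Nrf2 antioxidant gene (right, 26 genes) in the pair without ActD (circles) and the pair with ActD (triangles), ordered by their mean. The widest gaps between the pairs are those of Ccn2 (1.20 and 0.01) and Atf3 (0.99 and -0.04), and 14 of the 26 Nrf2 genes lie right of 0 in both pairs.

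Other stress genes gave fewer such members. Of 39 heat shock and unfolded protein genes tested, 5 were higher and 3 lower in both pairs (12.8% and 7.69%), the lower ones being the chaperones Hspa5 and Pdia4 of the endoplasmic reticulum and the unfolded protein factor Xbp1. The small heat shock protein Hspb8 read 10.63 and 10.43 in Activity and Activity + ActD, against 10.07 and 10.37 in Block and Block + ActD. Its partner in chaperone-assisted autophagy, Bag3, read 10.38 and 10.33 in Activity and Activity + ActD, against 9.98 and 10.28 in Block and Block + ActD. Ppp1r15a, a phosphatase subunit that restores translation after stress, read 8.58 and 8.50 in Activity and Activity + ActD, against 7.85 and 8.43 in Block and Block + ActD. For Hspb8, Bag3 and Ppp1r15a the groups did not overlap and Block without ActD was the low array. Such members were 7.69% of the 39, close to the 7.09% of all genes. Of 18 p53 and genotoxic stress genes tested, Gdf15 among them, 4 were higher (Gadd45a, Gdf15, Ppm1d and Xpc) and 4 lower in both pairs (Mdm2, Ccng2, Sesn1 and Apaf1). That was 22.2% in each direction, near the 19.3% and 21.4% of all genes.

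Among named genes detected on both Block arrays and lower in both pairs, Rtn4ip1, Cnot6 and Mrps10 ranked first by the smaller of their pair differences. B3gat1, the glucuronyltransferase of the HNK-1 carbohydrate, read 6.31 and 6.06 in Activity and Activity + ActD, against 6.89 and 7.07 in Block and Block + ActD, a difference of -0.79 ± 0.21 (limma adjusted p = 0.988). Mrps10, a mitochondrial ribosomal protein, read 5.89 and 6.18 in Activity and Activity + ActD, against 6.51 and 6.88 in Block and Block + ActD. Myl1, a myosin light chain, read 5.38 and 5.60 in Activity and Activity + ActD, against 5.97 and 6.19 in Block and Block + ActD. In each of B3gat1, Mrps10 and Myl1 both Activity arrays lay below both Block arrays, all 4 arrays detected the probe, and the later harvests differed less (-0.15 and -0.28 for B3gat1, -0.03 and -0.39 for Mrps10, -0.06 and -0.08 for Myl1, at 30 and 60 min). Timp1, a secreted inhibitor of metalloproteinases, was brighter, at 12.41 and 12.39 in Activity and Activity + ActD, against 12.74 and 12.81 in Block and Block + ActD, a difference of -0.37 ± 0.10, and it differed by -0.01 at 30 min and -0.01 at 60 min. Nipsnap2 (-0.58), the centromere protein Cenpt (-0.55), Ceacam4 (-0.67), the ubiquitin ligase Rnf26 (-0.65) and the acid-sensing channel Asic2 (-0.53) were also lower on both Activity arrays. At 30 and 60 min Nipsnap2 differed by -0.53 and -0.35, and Rnf26 by 0.66 and -0.24. Rtn4ip1, Guk1 and Ankfy1 were not detected on either Activity array, and were at least 1.21, 1.12 and 1.18 times higher in Block.

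Genes higher in both pairs by the same rule were mostly dim. Fbxo34, an F-box protein detected on all 12 arrays, read 6.65 and 6.55 in Activity and Activity + ActD, against 6.18 and 6.05 in Block and Block + ActD, a difference of 0.48 ± 0.21. Slc4a5, a bicarbonate transporter, read 5.91 and 6.45 in Activity and Activity + ActD, against 5.44 and 5.90 in Block and Block + ActD. Fabp2, a fatty acid binding protein best known from intestine, read 5.82 and 5.99 in Activity and Activity + ActD, against 5.17 and 5.46 in Block and Block + ActD. Both Activity arrays were above both Block arrays for Fbxo34, Slc4a5 and Fabp2, and for Cdc73 (0.54), a subunit of the PAF1 transcription complex, and Cmbl (0.55). Pold3, Myo1f, Mtr, Sh3bp2 and Fam151a were detected on both Activity arrays and on neither Block array, and were at least 1.11, 1.04, 1.22, 1.09 and 1.15 times higher in Activity. Myo1f and Sh3bp2 were detected on no other array and entered the test only through Activity. Rfc1 (0.54 without and 0.90 with ActD) and Adgrb1 (0.43 and 0.56) completed the rule with groups that overlapped.

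Voltage-gated channel and sterol genes were lower in both pairs more often than higher. Of 36 voltage-gated channel genes tested, 13 were lower in both pairs (36.1%, against 21.4% of all genes) and 0 were higher, with a median of -0.08. For 6 of them both Activity arrays lay below both Block arrays (16.7%, against 8.54%): Kcns2, Kcnip3, Cacnb2, Kcnip2, Kcna2 and Cacna1c, of which Cacnb2 was detected on none of the 4 arrays and only Kcnip2 and Cacna1c on all 4. Kcnip2, an auxiliary subunit of A-type potassium channels, read 7.05 and 7.46 in Activity and Activity + ActD, against 7.51 and 7.54 in Block and Block + ActD. Cacna1c, the pore of the L-type calcium channel that couples firing to gene expression, read 6.06 and 6.12 in Activity and Activity + ActD, against 6.17 and 6.23 in Block and Block + ActD, a gap smaller than its standard error. Only 24 of the 36 channel genes were detected on all 4 arrays, and none passed the test. The median of the 36 was -0.14 without and -0.084 with ActD (-0.15 and -0.0093 with equal totals).

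Of 24 sterol genes, all detected on all 4 arrays, 9 were lower in both pairs (37.5%) and 1, the cholesterol exporter Abca1, was higher (4.17%; 9 lower and 4 higher with equal totals), with a median of -0.07. The median of the 24 was -0.19 without and -0.033 with ActD (-0.20 and -8.2e-05 with equal totals). Fdft1, squalene synthase, read 9.66 and 9.88 in Activity and Activity + ActD, against 9.92 and 10.04 in Block and Block + ActD. Acat2 and Dhcr7, which act at the first and the last steps of cholesterol synthesis, also lay lower on both Activity arrays, by 0.33 and 0.15 without ActD and by 0.04 and 0.12 with it. For 3 of the 24 sterol genes, Fdft1 among them, both Activity arrays lay below both Block arrays (12.5%, against 8.54% of all genes). None of the 24 passed the test.

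The machinery of mRNA decay showed no common direction. Of 69 decay and microRNA silencing genes tested, 17 were higher and 16 lower in both pairs (24.6% and 23.2%, against 19.3% and 21.4%), with a median of 0.01. Cnot6, a catalytic deadenylase of the CCR4-NOT complex, read 5.84 and 4.95 in Activity and Activity + ActD, against 6.46 and 5.85 in Block and Block + ActD, a difference of -0.76 ± 0.22, and was not detected in Activity + ActD. The deadenylase adaptors Tob1 and Tob2 lay the other way. Tob1 read 6.45 and 6.54 in Activity and Activity + ActD, against 6.24 and 6.33 in Block and Block + ActD, and Tob2 read 8.42 and 8.13 in Activity and Activity + ActD, against 8.07 and 8.05 in Block and Block + ActD. The decapping scaffold Patl1 was also higher on both Activity arrays, by 0.11 without and 0.37 with ActD. Of the list's 11 exosome and nonsense-mediated decay genes 6 were lower in both pairs (54.5%, against 21.4% of all genes) and 0 higher. The groups did not overlap for Exosc8, Upf3a and Smg6 (27.3%, against 8.54%). The median of the 11 with ActD was -0.064, and 0.0027 with equal totals. Ybx1, an RNA-binding protein that stabilizes transcripts, read 6.62 and 6.79 in Activity and Activity + ActD, against 7.41 and 6.88 in Block and Block + ActD.

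The study traced short motifs of its downregulated transcripts to microRNA seeds, so targets predicted for miR-485-5p and for the pair miR-330-5p and miR-326-3p were set against all genes. Targets of miR-666-3p and miR-761, which the study also named, were not analysed here. A seed, bases 2 to 8 of the mature microRNA, pairs with target transcripts. The mature sequences (RefSeq, GRCr8, 5′ to 3′, seeds in capitals) are shown for the motifs' microRNAs with an entry there, of which miR-326-3p and miR-330-5p share 1 seed and hence 1 target list. They lie at chr1:163266224-163266244 (miR-326-3p), chr1:87961227-87961248 (miR-330-5p), chr6:134571076-134571097 (miR-485-5p) and chr6:134552323-134552345 (miR-666-3p), all on the plus strand.
rno-miR-326-3p: cCUCUGGGcccuuccuccagu
rno-miR-330-5p: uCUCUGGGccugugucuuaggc
rno-miR-485-5p: aGAGGCUGgccgugaugaauuc
rno-miR-666-3p: gGCUGCAGcgugaucgccugcuc

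Predicted targets of the CUCUGGG seed numbered 156 tested genes, of which 40 were lower in both pairs (25.6%, against 21.4% of all genes) and 35 higher (22.4%, against 19.3%). Both Activity arrays lay below both Block arrays for 21 of them (13.5%, against 8.54%), and the median was -0.0046. For the 115 tested targets of miR-485-5p, 26 were lower (22.6%) and 22 higher (19.1%), with a median of 0.01, and for the 64 transcripts that matched 8-base motifs of the study, 14 were lower (21.9%) and 9 higher (14.1%), with a median of -0.0029. The medians of these lists changed sign with the scaling. The motifs behind the last list were found by the study in transcripts it had selected on these arrays. The microRNAs of both target lists were named by the study from such motifs. The direction of these lists is therefore not independent evidence. Oxsr1, a kinase that regulates chloride transporters and is a predicted target of both seeds, read 5.02 and 4.92 in Activity and Activity + ActD, against 5.72 and 5.36 in Block and Block + ActD, with no Activity array detecting it. Metap1, a methionine aminopeptidase with the CUCUGGG match, read 6.72 and 6.79 in Activity and Activity + ActD, against 7.13 and 7.17 in Block and Block + ActD. Among miR-485-5p targets, Crot, a peroxisomal carnitine acyltransferase, read 9.72 and 8.97 in Activity and Activity + ActD, against 9.43 and 8.61 in Block and Block + ActD, and was higher in both pairs although the groups overlapped. No predicted target passed the test.

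Neuronal transcripts differed in opposite directions in the pair without and the pair with ActD. Of 28 pan-neuronal markers 20 were lower without and higher with ActD (71.4%, against 28.9% of all genes), and their median difference was -0.31 without and 0.12 with ActD. Snap25, the neuronal SNARE of vesicle fusion, read 10.65 and 10.36 in Activity and Activity + ActD, against 11.08 and 9.78 in Block and Block + ActD. Syt1, the calcium sensor of release, read 11.27 and 10.89 in Activity and Activity + ActD, against 11.75 and 10.50 in Block and Block + ActD. In Snap25 and Syt1 the Activity arrays lay between the Block arrays, of which Block was high and Block + ActD low. Gria2, the AMPA receptor subunit that sets calcium permeability, showed the same order, at 9.55 and 8.56 in Activity and Activity + ActD, against 10.25 and 8.21 in Block and Block + ActD. Axon and growth cone genes (36 of 56; medians -0.20 and 0.10), synaptic vesicle genes (31 of 52; -0.17 and 0.12) and postsynaptic genes (29 of 49; -0.14 and 0.16) were placed like the markers. Some members were higher in both pairs: 3 of the 28 markers (10.7%) and 14 of the 56 axon genes (25.0%), against 19.3% of all genes. Gap43, the growth cone protein, was 1 of these, with 14.70 and 14.59 in Activity and Activity + ActD, against 14.64 and 14.53 in Block and Block + ActD.

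Microglial and interferon genes were placed the other way. Of 17 microglia markers tested out of 42, 15 were higher without and lower with ActD (88.2%, against 30.4% of all genes), with a median of 0.34 without and -0.29 with ActD (0.13 and -0.16 with equal totals). The summed linear level of the 17 was 8389 in Activity and 8534 in Activity + ActD, against 7092 in Block and 9583 in Block + ActD. Aif1, the microglial calcium-binding protein IBA1, read 9.67 and 9.18 in Activity and Activity + ActD, against 9.10 and 9.75 in Block and Block + ActD. Fcgr3a, an Fc receptor, read 7.16 and 6.76 in Activity and Activity + ActD, against 6.57 and 7.60 in Block and Block + ActD. Ctss, a lysosomal protease of microglia, read 7.47 and 6.72 in Activity and Activity + ActD, against 6.92 and 7.47 in Block and Block + ActD. Fcgr3a, Ctss, C1qa and C1qb were detected on the 4 arrays of 5 min and on none of the 8 later arrays, and Aif1 on 5 of the 12.

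Of 33 interferon and antigen presentation genes tested, 22 were higher without and lower with ActD (66.7%), with a median of 0.41 without and -0.17 with ActD (0.24 and -0.13 with equal totals). The class I antigen RT1-A2 read 8.57 and 8.34 in Activity and Activity + ActD, against 7.52 and 8.75 in Block and Block + ActD. Tap1 and Tap2, the peptide transporters of antigen presentation, differed by 0.41 and 0.59 without and by -0.75 and -0.52 with ActD. Cxcl10, an interferon-induced chemokine, was higher in both pairs, at 8.74 and 8.61 in Activity and Activity + ActD, against 8.33 in each Block array, and was detected on these 4 arrays of the 12. Ccl5, a chemokine, read 6.90 and 6.95 in Activity and Activity + ActD, against 7.14 and 7.94 in Block and Block + ActD, and was likewise detected on these 4 arrays. Microglia markers differed in the same direction as the interferon genes and opposite to the neuronal genes in each pair, by their medians, and their part in those differences was not tested.

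**Figure D4:**
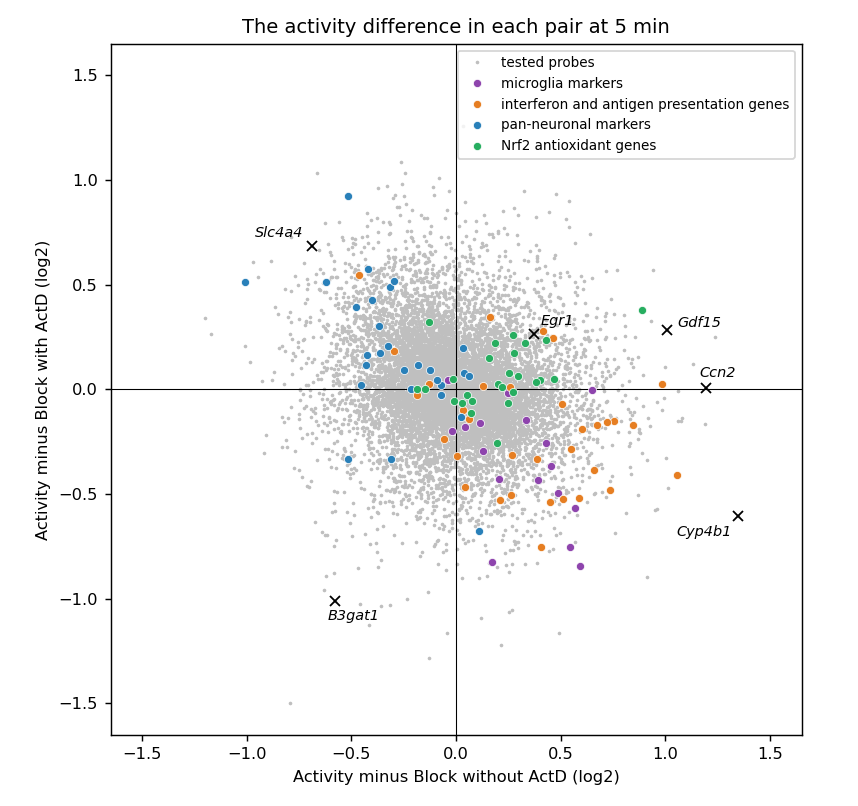
Activity minus Block (log2) of each tested probe without ActD (horizontal) and with ActD (vertical), with microglia, interferon, pan-neuronal and Nrf2 lists in colour and 6 genes marked by crosses. Microglia and interferon genes lie mostly at the lower right (medians 0.34 and -0.29, and 0.41 and -0.17), pan-neuronal markers mostly at the upper left (-0.31 and 0.12).

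Astrocyte markers, ribosomal proteins and oxidative phosphorylation genes had medians near 0 over both pairs. Of 29 astrocyte markers 9 were higher and 3 lower in both pairs (31.0% and 10.3%, against 19.3% and 21.4% of all genes). The astrocyte medians were 0.04 without and 0.08 with ActD (-0.0079 and 0.067 with equal totals). Gfap, the astrocytic filament protein, read 13.80 and 13.93 in Activity and Activity + ActD, against 13.77 and 13.87 in Block and Block + ActD. Of 58 ribosomal protein genes 17 were higher and 6 lower in both pairs (29.3% and 10.3%), with a median of 0.03. With median scaling these ribosomal counts were 6 and 7. Of 57 oxidative phosphorylation genes 16 were higher and 7 lower in both pairs (28.1% and 12.3%), with a median of 0.04. The oxidative phosphorylation counts were 17 and 2 with equal totals, and 12 and 2 with median scaling. Both lists also had medians of opposite sign in the pairs, at 0.075 without and -0.014 with ActD for ribosomal genes and 0.077 and -0.026 for oxidative phosphorylation genes. With median scaling these were 0.16 and -0.099, and 0.16 and -0.079. Higher without and lower with ActD were 43.1% of the ribosomal and 47.4% of the oxidative phosphorylation genes, against 30.4% of all genes. Rps21 read 14.00 and 14.09 in Activity and Activity + ActD, against 13.82 and 13.99 in Block and Block + ActD.

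**Figure D5:**
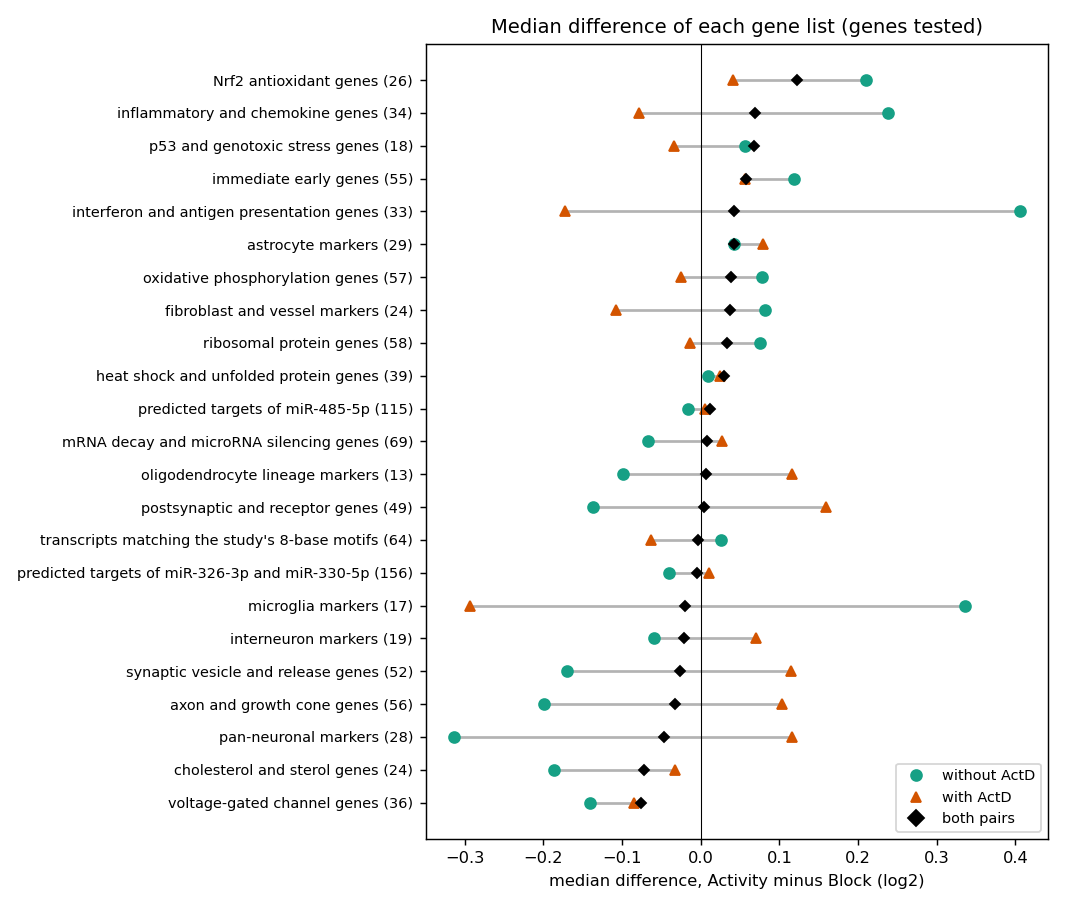
Median Activity minus Block (log2) over the tested genes of each list (number in brackets), without ActD (circles), with ActD (triangles) and over both pairs (diamonds). Among the 23 lists drawn, which leave out the genes the study named (median -0.12), Nrf2 genes lie highest over both pairs (0.12) and voltage-gated channels lowest (-0.08), and the widest gaps between the pairs are those of the interferon (0.41 and -0.17) and microglia lists (0.34 and -0.29).

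Whether the activity difference depended on ActD was tested with the spread of the same contrast at 30 and 60 min. At an adjusted p of 0.05 the limma fit called 0 of 11792 probes (0%), with a smallest adjusted p of 0.699, although 479 were higher (4.06%) and 319 lower with ActD (2.71%) at an unadjusted p under 0.05. Without the 60 min harvest, on 1 residual degree of freedom, 229 were called higher and 60 lower, and without the 30 min harvest 0. The genes with the lowest p were Cyp4b1, a cytochrome P450, and Ccn2. Cyp4b1 read 6.67 and 5.34 in Activity and Activity + ActD, against 5.32 and 5.94 in Block and Block + ActD, and the gap between its pairs was -1.95. Cyp4b1 was detected on the 4 arrays of 5 min and on none of the later arrays, from which the test took its spread. Grm7, a presynaptic glutamate receptor, read 6.26 and 6.89 in Activity and Activity + ActD, against 7.14 and 6.28 in Block and Block + ActD. Dpp6, a potassium channel partner, lay likewise, with 5.39 and 6.10 in Activity and Activity + ActD, against 6.36 and 5.49 in Block and Block + ActD. Slc4a4, a bicarbonate transporter of astrocytes, differed by -0.69 without and 0.69 with ActD on one probe, and by 0.05 and 0.73 on its other probe.

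Whether the difference at 5 min departed from that at 30 and 60 min was tested over all 12 arrays. No probe was called (0%), the smallest adjusted p was 0.450, and 223 probes were higher (1.89%) and 136 lower (1.15%) at an unadjusted p under 0.05. Without the 60 min harvest 41 were called higher and 2 lower, and without the 30 min harvest 0. The named gene with the lowest p was Dpysl3, an axonal collapsin response mediator. Dpysl3 read 9.44 and 9.60 in Activity and Activity + ActD, against 9.14 and 9.52 in Block and Block + ActD, so its 5 min difference was 0.19 ± 0.14, and the contrast with the later harvests rested on its difference of -1.61 at 30 min. Col8a1 (-1.18) and Pdlim5 (-1.11) also had their largest difference at 30 min, while Rfc1, next after Dpysl3 by p, differed as much at 5 min (0.72) as at 30 min (-0.70). Egr1 differed from its later harvests by 0.34 (limma adjusted p = 1), with -0.12 at 30 min and 0.07 at 60 min.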

How the data were processed

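RNA of rat hippocampal cultures was hybridised to Illumina RatRef-12 bead arrays, grouped here by their labels. The authors deposited linear intensity values of 22523 probes, neither scaled nor background-subtracted, with a detection p-value for each signal. Arrays were read on an Illumina BeadStation with BeadStudio (version not stated in the sources used). The platform annotation named 13793 probes. All 12 arrays were processed together by neqc of limma 3.58.1 in R 4.3.3 (normexp background, quantile normalization, log2 with an offset of 16). A probe was tested where 2 or more of the 12 arrays had detection p below 0.01, and a gene was represented by its brightest probe.

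Activity minus Block was fitted on the 4 arrays with an ActD term (lmFit, eBayes with trend, Benjamini-Hochberg, threshold 0.05). Contrasts with ActD state (2 residual degrees of freedom) and with later harvests (3) used all arrays. Fits were tested on simulated data. Co-regulation used z-scores of log2 values after scaling to equal totals, over probes with detection p below 0.1 on every array. Other normalizations, offsets, filters, fits and left-out pairs or harvests were tried. Arrays and gene lists were chosen with earlier results of these data known.

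Genes were named by rule: those called; the 12 higher and 12 lower in both pairs, detected on the higher side, with the largest smaller difference; 6 in each opposite direction; the 4 leading members of each list; early genes by role; and the 4 with the lowest p in each contrast. Other members were named after their values were seen.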

Additional observations from a re-analysis of the deposited data

Results flagged for a closer look

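The lists below had medians of opposite sign in the pair without and the pair with ActD, and the difference of the medians was not tested. For pan-neuronal markers the median Activity minus Block was -0.31 without and 0.12 with ActD. It was -0.20 and 0.10 for axon and growth cone genes, -0.17 and 0.12 for synaptic vesicle and release genes, and -0.14 and 0.16 for postsynaptic and receptor genes. The 7 tested genes that the study named, which share members with those lists, had -0.31 and 0.17. Microglia markers had 0.34 and -0.29, and interferon and antigen presentation genes had 0.41 and -0.17. With equal totals these were 0.13 and -0.16 for microglia markers and 0.24 and -0.13 for interferon genes. Each median compares 1 array with 1, so no group held enough arrays for a search for outlying arrays.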

How the results depend on the processing

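The 3 calls of the activity contrast depended on the setting. There was 1 with equal totals, 1 with probes detected on all 4 arrays and 1 with a robust variance, and 0 without a detection filter, without the ActD term, with all 12 arrays and in either pair alone (0 to 0). Leaving out a harvest gave 0 to 289 calls for the difference between ActD states and 0 to 43 for 5 min against the later harvests, the higher values without 60 min. Without a filter 11.8% of probes had both Activity arrays higher. Past 1.5-fold in both pairs there were 9 probes, against 0 with equal totals, 2 with detection on all 4 arrays and 0 with offset 50. The median of heat shock genes (0.03) was 0.014 with equal totals, 0.053 with median scaling and 0.013 with offset 50, and that of miR-485-5p targets (0.012) was -0.010 with equal totals. Over all list settings 17 of 24 medians kept their sign, among them Nrf2 genes (0.104 to 0.154), immediate early genes (0.052 to 0.071), voltage-gated channels (-0.076 to -0.059) and sterol genes (-0.073 to -0.061), and 7 near 0 changed it. With equal totals the medians without and with ActD were 0.018 and 0.087 for immediate early genes, 0.13 and -0.16 for microglia markers, and 0.24 and -0.13 for interferon genes. They were -0.15 and -0.0093 for voltage-gated channels, and -0.20 and -8.2e-05 for sterol genes.

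Of 1452 values of named genes under alternatives, 1411 kept direction and call, 8 lost a call (Gdf15), 16 gained one without the 60 min harvest and 17 changed sign. With equal totals Arc was -0.025 and Plk2 -0.016. By pair, the lowest and highest differences were -0.036 and 0.15 for Junb, -0.041 and 0.99 for Atf3, -0.12 and 0.84 for Mafk, -0.026 and 0.070 for Egr2, -0.21 and 0.38 for Nr4a1, -0.19 and 0.28 for Nr4a2, -0.33 and 0.42 for Nr4a3, -0.21 and 0.26 for Arc, -0.54 and 0.29 for Bdnf, -0.12 and 0.091 for Nptx2, -0.14 and 0.22 for Plk2, -0.24 and 0.14 for Vgf, -0.37 and 0.17 for Scg2, -0.11 and 0.16 for Rgs2, and -0.14 and 0.27 for Plat. The replicate number, the same on all arrays, gave no pairing by culture, so arrays were paired by ActD state alone, through the ActD term. The causes of these changes were not tested. Signal over background limits dim probes, and 1 array per group leaves no spread between cultures.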
